A study of Mus musculus with 9 samples.

Results

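The nuclear genes for the subunits of the respiratory chain and of ATP synthase were described in RNA-seq libraries of the mouse left ventricle. Rows were taken by gene symbol (Ndufa, Ndufb, Ndufc, Ndufs and Ndufv genes with a number, Sdha to Sdhd, the Uqcr genes, Cyc1, Cox4i, Cox5, Cox6, Cox7 and Cox8 genes, and symbols that start with Atp5). Of 20634 rows, 87 had such a symbol, and 85 reached a rounded count of 10 in at least 2 libraries. They were 37 genes listed under complex I, 4 under complex II, 9 under complex III, 16 under complex IV and 19 under complex V. Cox7b2 and the pseudogene Atp5l2-ps did not reach that count in 2 libraries. Symbols put 7 rows in these complexes that are not plain subunit genes. Ndufa4, whose product is now assigned to complex IV, and its paralog Ndufa4l2 were listed under complex I. Cox7a2l codes for a factor that joins complexes III and IV, Atp5s and Atp5sl (now Dmac2l and Dmac2) are not subunit genes of the enzyme, and Atp5k-ps2 and Atp5l-ps1 are pseudogenes.

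The respiratory chain sits in the inner mitochondrial membrane. Complexes I and II pass electrons from NADH and succinate to coenzyme Q, complex III passes them to cytochrome c, and complex IV passes them to oxygen. Complexes I, III and IV pump protons, and complex V uses the gradient to make ATP. Nuclear genes code for most of the subunits and the mitochondrial genome for a few, and the beating heart depends on the chain for nearly all of its ATP. The files held 0 genes of the mitochondrial chromosome, so only the nuclear part was measured.

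The 9 libraries came from 5 delta-sarcoglycan knockout (KO) and 4 wild-type (WT) samples of C57BL/6 mice. Delta-sarcoglycan is a membrane protein of striated muscle, and its loss in mice causes a muscular dystrophy with heart muscle disease. Ifetroban, which blocks the receptor for thromboxane and related prostanoids, was given in water from weaning (25 mg/kg/day), and the other animals had normal water, called vehicle in the labels. The groups were KO ifetroban (3 libraries), KO vehicle (2), WT ifetroban (2) and WT vehicle (2), all from mice aged 6 months that had running wheels from time to time. Hearts were flushed with phosphate-buffered saline before RNA extraction. Neither the deleted part of the gene nor whether each library came from its own animal was known here. P-values therefore measure the spread between these samples.

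Total counts were 21510263 to 30182955 per library, and 15549 genes passed the low-count filter, all 85 members among them. The knocked-out gene, Sgcd, was at 7.3, 12.9 and 13.3 CPM (counts scaled to the library total, with TMM factors) in KO ifetroban, 9.64 and 8.63 CPM in KO vehicle, 23.7 and 23.5 CPM in WT ifetroban, and 8.36 and 20.9 CPM in WT vehicle libraries. The value of the library labelled WT vehicle 1 lay within the KO range, so results are also given without it. KO ifetroban 1 has ifetroban in its title and source name and vehicle in its treatment field, and was analysed as ifetroban. Each library's deviation from the mean of all 9 was also set against transcript length over 13351 protein-coding genes that are no members. Spearman's rho was -0.524, -0.394, -0.454 and -0.478 in KO ifetroban 1, KO vehicle 1, KO vehicle 2 and the library labelled WT vehicle 1. It was between 0.397 and 0.436 in the other 5. These 4 libraries are called the negative-slope set (long transcripts low) and the other 5 the positive-slope set (long transcripts high). The sets cross the groups, but both KO vehicle libraries are in the negative and both WT ifetroban libraries in the positive set.

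Per kilobase of coding sequence, the levels of the members ranged from a mean of 2.4 CPM per kb for Cox6b2, the testis form of a complex IV subunit, to 3187 CPM per kb for Cox6a2, the muscle form of another. The next highest were Atp5b, which codes for the catalytic beta subunit of ATP synthase (2667 CPM per kb), Atp5g3, a gene for the c subunit of its rotor ring (2614 CPM per kb), and Cox4i1, the common form of the regulatory subunit 4 of complex IV (2528 CPM per kb). The ranges of these 4 genes over the 9 libraries overlapped, so their order is not firm. Median levels by complex were 439.9 CPM per kb for complex I, 743 for complex II, 943 for complex III, 1222 for complex IV and 885 for complex V. At the low end were Cox4i2, a form of subunit 4 induced by low oxygen in other tissues (15.5 CPM per kb), and Atp5g2, another c-subunit gene (5.67 CPM per kb).

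The median member lay below its mean in all 5 positive-slope libraries. The medians of complexes I, III, IV and V had 1 sign in every library but KO vehicle 1, and complex II differed from them in WT ifetroban 2 and WT vehicle 2, where its medians were 0.05 and 0.04. The median member deviated from its own mean of log2 CPM by 0.23, -0.22 and -0.27 in KO ifetroban libraries, 0.17 in KO vehicle 2, -0.14 and -0.13 in WT ifetroban libraries, 0.45 in the library labelled WT vehicle 1 and -0.08 in WT vehicle 2. In KO vehicle 1, 41 of the 85 members lay above their own means. The highest and the lowest libraries differed in nearly every member: 84 were above their means in the library labelled WT vehicle 1 and 81 in KO ifetroban 1, against 4 and 1 in KO ifetroban 2 and 3. Summed over the members, 3.22% to 3.98% of a library's counts fell on them. Complex II varied least between replicates (SD of its median 0.146 on the log2 scale, against 0.277 for complex IV).

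**Figure D1:**
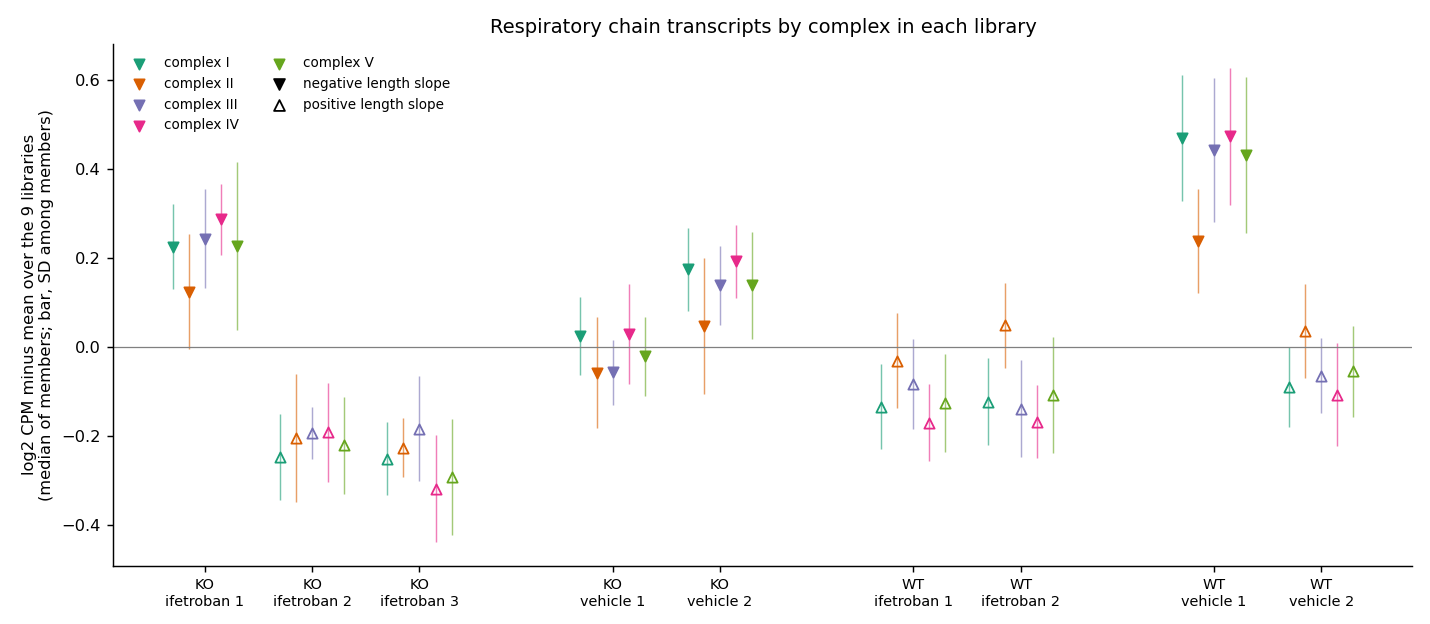
Median deviation of the members of each complex from their own means (log2 CPM, y axis) in each of the 9 libraries (x axis); bars are the SD among the members of a complex in that library, filled triangles are libraries of the negative-slope set and open ones those of the positive-slope set. The library labelled WT vehicle 1 and KO ifetroban 1 lie highest in all 5 complexes, and KO ifetroban 2 and 3 lie lowest.

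KO hearts had lower levels than WT hearts of Sdha, the flavoprotein of complex II that oxidises succinate, in every library, although the difference did not pass the threshold over all genes. Sdha (chromosome 13, 74322254 to 74350280, minus strand, build mm10) was at 1172, 1315 and 1169.6 CPM in KO ifetroban, 1056 and 1118 CPM in KO vehicle, 1415 and 1473 CPM in WT ifetroban and 1324 and 1482 CPM in WT vehicle libraries. All 5 KO libraries lay below all 4 WT libraries, with a log2 change -0.30 ± 0.08 (SE), adjusted p = 0.097 by edgeR over both treatments. The iron-sulfur subunit Sdhb was at 583, 450.4 and 436 CPM in KO ifetroban, 494 and 587 CPM in KO vehicle, 502 and 528 CPM in WT ifetroban and 664 and 520.3 CPM in WT vehicle libraries, and the groups overlapped (log2 change -0.10 ± 0.12 (SE), adjusted p = 0.717). The membrane anchors Sdhc and Sdhd had log2 changes of -0.13 ± 0.10 and -0.10 ± 0.10 (SE), with adjusted p of 0.563 and 0.67 by edgeR.

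Besides Sdha, Ndufs1 and Atp5a1 were the members with no overlap between the genotypes. Sdha, Ndufs1 and Atp5a1 were also the only members lower in the negative-slope set, which holds 3 KO libraries and 1 WT library. Ndufs1 (chromosome 1, 63143596 to 63176833, minus strand), the largest iron-sulfur subunit of complex I, was at 497, 528 and 475 CPM in KO ifetroban, 456 and 492 CPM in KO vehicle, 575 and 571 CPM in WT ifetroban and 552 and 578 CPM in WT vehicle libraries. Its log2 change was -0.22 ± 0.08 (SE), adjusted p = 0.173 by edgeR. Atp5a1 (chromosome 18, 77773729 to 77782869, plus strand), the alpha subunit of ATP synthase, was at 3817, 3569 and 3447 CPM in KO ifetroban, 3321 and 3638 CPM in KO vehicle, 3844 and 4125 CPM in WT ifetroban and 4069 and 4086 CPM in WT vehicle libraries. The KO libraries were again all lower, with a narrow gap of 3817 against 3844 CPM (log2 change -0.18 ± 0.08 (SE), adjusted p = 0.296 by edgeR). Of the 15549 genes, 370 (2.38%) had all KO below all WT libraries, so 3 of 85 members is a share near that of all genes. No member had all KO libraries above all WT libraries.

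**Figure D2:**
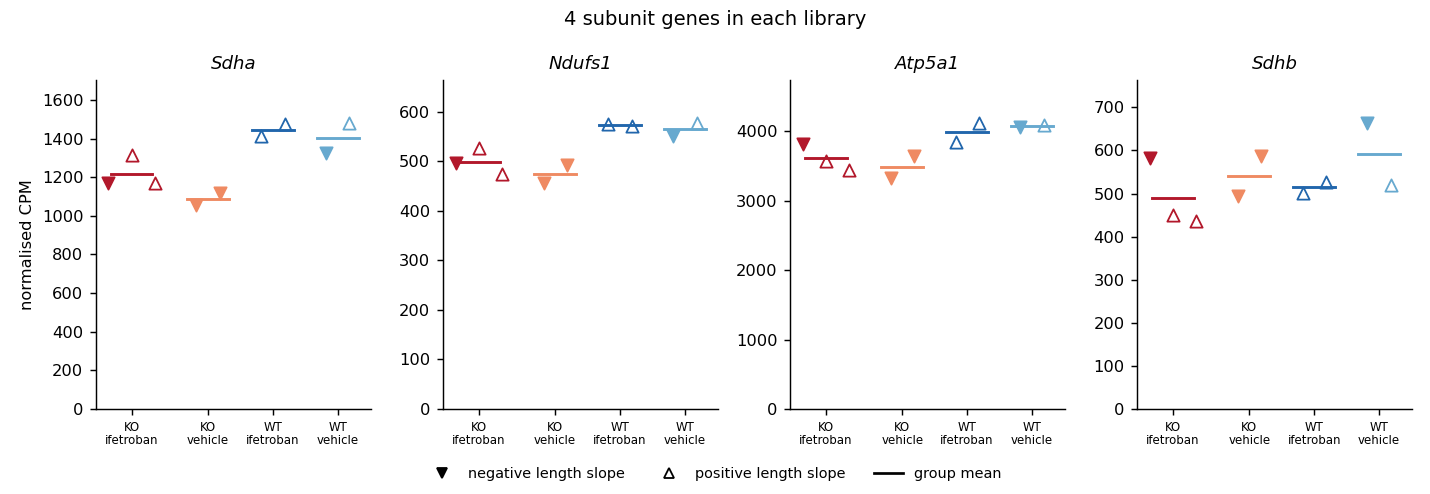
Normalised CPM (y axis, from 0) of Sdha, Ndufs1, Atp5a1 and Sdhb in each library by group (x axis); horizontal lines are group means, filled triangles the negative-slope and open triangles the positive-slope set. For Sdha, Ndufs1 and Atp5a1 every KO library is below every WT library, while for Sdhb the genotypes overlap.

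For the members with a RefSeq promoter entry, the 250 bases before the annotated start were searched for the motif of NRF1, a factor known to bind promoters of respiratory chain genes, and the core motif of the ETS family, which includes GABP. Sdha is printed as the member with the lowest log2 change over both treatments, and Sdhd and Cox6a1 as members of complexes II and IV that hold both motifs. The letters searched, on both strands, were GCGCA and GCGC separated by any 1 base for NRF1 and CCGGAAG for ETS, which did not overlap each other in these promoters. An entry was matched for 68 of the 85 members. The NRF1 letters were in the promoters of 13 of 68 members (19.1%), against 4.23% of 27025 genes, and the ETS letters in 12 of 68 (17.6%), against 7.83%. A gene with several starts was counted once if any window matched. By complex, the NRF1 letters were found in 6 of 32 members of complex I, 2 of 3 of complex II, 0 of 5 of complex III, 1 of 12 of complex IV and 4 of 16 of complex V. The sequences, from RefSeq on GRCm38.p6 (the sequence of mm10), are in lower case, 5′ to 3′ on the strand of the gene, with the matched letters in capitals. They lie at chr13:74350241-74350490, minus strand for Sdha, chr9:50603850-50604099, minus strand for Sdhd and chr5:115348959-115349208, minus strand for Cox6a1.
Sdha: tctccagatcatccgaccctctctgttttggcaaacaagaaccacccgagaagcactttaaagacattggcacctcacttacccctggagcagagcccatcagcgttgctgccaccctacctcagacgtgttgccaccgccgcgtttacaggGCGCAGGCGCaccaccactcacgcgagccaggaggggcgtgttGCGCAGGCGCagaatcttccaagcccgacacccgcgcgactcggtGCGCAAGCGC
Sdhd: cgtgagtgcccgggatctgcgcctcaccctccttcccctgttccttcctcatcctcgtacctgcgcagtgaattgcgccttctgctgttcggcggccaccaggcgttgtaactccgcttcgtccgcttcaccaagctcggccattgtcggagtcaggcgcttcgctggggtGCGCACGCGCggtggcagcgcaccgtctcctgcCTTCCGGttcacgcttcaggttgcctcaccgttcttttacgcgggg
Cox6a1: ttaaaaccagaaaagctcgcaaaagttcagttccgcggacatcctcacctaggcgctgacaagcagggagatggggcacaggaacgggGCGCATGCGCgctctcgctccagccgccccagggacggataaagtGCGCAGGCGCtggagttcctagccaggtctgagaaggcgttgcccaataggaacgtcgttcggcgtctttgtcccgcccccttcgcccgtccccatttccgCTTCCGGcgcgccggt

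The Sdha window held the NRF1 letters at 3 places, starting 98, 55 and 10 bases before the RefSeq start. By the deposited coordinates the genes Sdha and Cox6a1 begin within these windows, so the Sdha match nearest the start and the ETS match of Cox6a1 lie inside the gene. A match is a description of the letters, and binding was not measured.

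With an adjusted p threshold of 0.05 over all genes, edgeR called 0 of the 85 members changed between KO and WT in the fit over both treatments, where it called 2.33% of all genes. Unadjusted p was under 0.05 for 4 members: Sdha, Ndufs1 and Atp5a1 were lower and Cox4i2 was higher in KO. Of all 15549 genes, 1448 higher and 1048 lower in KO had such a p, a larger share than of the members. DESeq2 called 2 members lower in KO, with Sdha at a log2 change of -0.31 ± 0.08 (SE), adjusted p = 0.00362, and Ndufs1 at -0.23 ± 0.07 (SE), adjusted p = 0.0199, against 5.76% of all genes called by that tool. Under vehicle and under ifetroban edgeR also called 0 members (unadjusted p under 0.05 for 1, Sdha, and for 0 members), where 0.0515% and 0.0386% of all genes were called, and DESeq2 called 0. Of all genes, 810 higher and 419 lower in KO had an unadjusted p under 0.05 under vehicle, and 970 and 485 under ifetroban. The median log2 change of the members, KO over WT, was -0.13 under vehicle, 0.07 under ifetroban and -0.02 over both treatments, beside -0.02, -0.01 and -0.02 for all genes. The SD of the members' median between replicates was 0.249, more than any of these. Without the library labelled WT vehicle 1 the medians were 0.18 under vehicle and 0.12 over both treatments. That comparison under vehicle was of KO libraries in the negative-slope set with WT vehicle 2 alone, in the positive-slope set. The median over both treatments was also above 0 without KO vehicle 1 (0.04) and without KO ifetroban 3 (0.01), and with a replicate block (0.02). Under ifetroban it was -0.12 without KO ifetroban 1 and -0.12 with the slope set as a term, so none of the 3 medians has a firm direction.

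By complex, the median log2 changes over both treatments were -0.02 for complex I, -0.11 for complex II, -0.02 for complex III, -0.01 for complex IV and -0.04 for complex V. Complex II had the lowest median, and all 4 of its genes had negative values. Above 0 were 15 of 37 members of complex I, 3 of 9 of complex III, 6 of 16 of complex IV and 4 of 19 of complex V. The complexes were not tested against each other.

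Within each slope set, KO libraries mostly lay below WT libraries. In the positive-slope set, the 2 KO libraries (KO ifetroban 2 and 3) were below all 3 WT libraries for 51 of 85 members, against 17.3% of all genes. In the negative-slope set, the 3 KO libraries were below the only WT library, the library labelled WT vehicle 1, for 82 of 85, against 33.0% of all genes. Without that library the negative-slope set holds no WT library, and its count cannot be made. The same 51 members were lower in KO in both sets, against 8.99% of all genes, and 0 members were higher in KO in both. By complex these were 25 of 37 members of complex I, 4 of 4 of complex II, 5 of 9 of complex III, 6 of 16 of complex IV and 11 of 19 of complex V. Members move together within a library, so these counts are no more independent than the libraries are. Within the sets treatment is not balanced between the genotypes.

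With the slope set as a term in the edgeR model, the median log2 change over both treatments was -0.22, and the complexes were close to each other (-0.21 for complex I, -0.25 for complex II, -0.20 for complex III, -0.22 for complex IV and -0.21 for complex V). In that fit 83 of 85 members had a negative log2 change, 68 with an unadjusted p under 0.05. The same counts over all genes are not given here, so neither is read as particular to the members. At the adjusted threshold 2 members passed, where 3.04% of all genes did. These were Ndufc2 and Ndufs4, accessory subunits of complex I. Ndufc2 was at 139, 94.5 and 94.4 CPM in KO ifetroban, 131 and 127 CPM in KO vehicle, 115 and 114 CPM in WT ifetroban and 167 and 105 CPM in WT vehicle libraries, and its log2 change was -0.31 ± 0.06 (SE), adjusted p = 0.0184. Its genotypes overlapped over all libraries, since the negative-slope libraries were higher in both genotypes. For Ndufs4 the log2 change in that fit was -0.30 ± 0.07 (SE), adjusted p = 0.0329. Under vehicle 2 members passed, against 0.759% of all genes. They were Cox7a1, the muscle form of a complex IV subunit (-0.50 ± 0.09 (SE), adjusted p = 0.0298), and Ndufb6, an accessory subunit of complex I (-0.44 ± 0.09 (SE), adjusted p = 0.0447). Both KO vehicle libraries are in the negative-slope set, whose only WT library is the library labelled WT vehicle 1. Without that library, in the group model, the log2 changes under vehicle were 0.16 for Cox7a1 and 0.19 for Ndufb6. WT vehicle 2, then the only WT vehicle library, is of the positive-slope set, so genotype and set cannot be told apart there.

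With an offset for transcript length and GC content in place of the set, edgeR called 6 members lower in KO over both treatments, where it called 5.22% of all genes. Sdha was at -0.35 ± 0.07 (SE), adjusted p = 0.0153 and Ndufs1 at -0.29 ± 0.06 (SE), adjusted p = 0.0234. Atp5a1, Ndufv1, a core subunit of complex I, and Uqcrc1, a core protein of complex III, were among the others, with log2 changes of -0.27 to -0.25 and adjusted p of 0.0325 to 0.0422. All 6 are among the 9 members with a coding length over 1200 bases. The median in this fit was -0.14, and 79 of 85 members were negative, a count also given without that of all genes. The members called therefore differed between the 2 corrected fits, with 0 in common, while the sign of most members was shared. With both the library labelled WT vehicle 1 and KO ifetroban 1 left out, 3 members passed under vehicle, against 9.63% of all genes. Under vehicle the lowest was that of Sdha (-0.44) and the highest that of Ndufa4l2 (0.60), and Cox6a1 was at 0.47. Both KO vehicle libraries are in the negative-slope set and WT vehicle 2 is in the positive-slope set. Genotype and set cannot be told apart in that comparison.

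**Figure D3:**
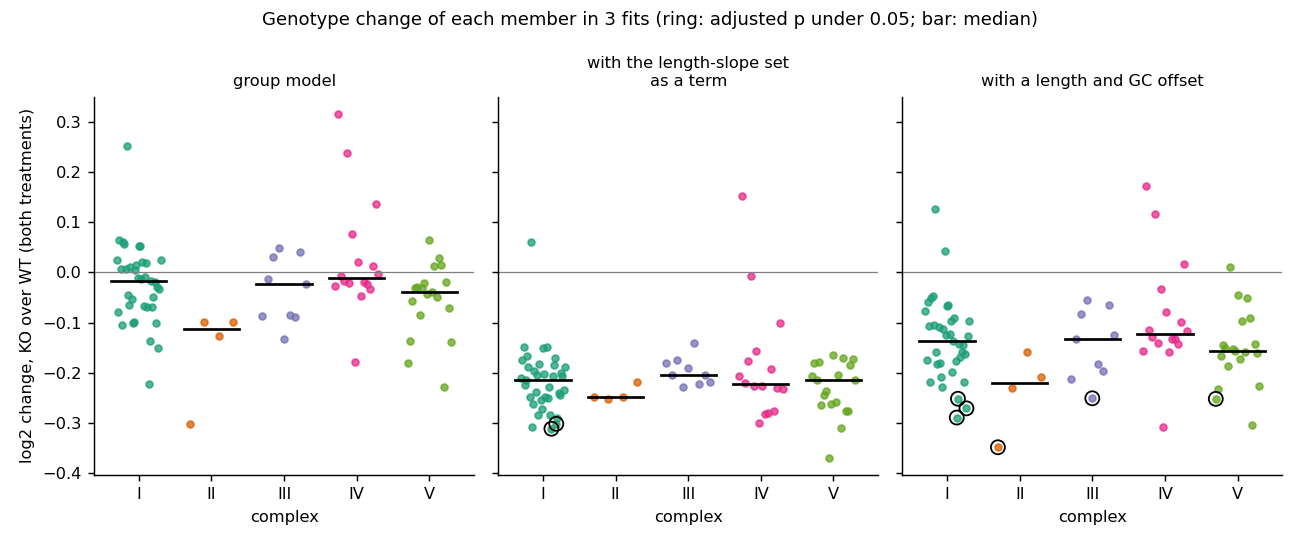
Log2 change of each member, KO over WT over both treatments (y axis), by complex (x axis) in the edgeR group model, with the length-slope set as a term, and with a length and GC offset; bars are medians and rings mark members with an adjusted p under 0.05. The medians are near 0 except in complex II in the group model, and between -0.25 and -0.12 in the corrected fits.

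The genes named here for core subunits, some of which carry redox centres or catalytic sites, had negative log2 changes in the group model, and 0 passed the threshold. In complex I, the core subunit gene Ndufv1, whose product binds NADH, was at 641, 577 and 565 CPM in KO ifetroban, 551 and 582 CPM in KO vehicle, 599 and 636 CPM in WT ifetroban and 711 and 649 CPM in WT vehicle libraries. The KO and WT ranges of Ndufv1 overlapped (log2 change -0.15 ± 0.09 (SE), adjusted p = 0.413 by edgeR). The core subunit genes Ndufs3, Ndufs7, Ndufs8 and Ndufv2 had log2 changes of -0.02, -0.10, -0.03 and -0.03. In complex III, cytochrome c1 (Cyc1) had a log2 change of -0.09 ± 0.10 (SE), the Rieske protein (Uqcrfs1) -0.09 ± 0.11, and the core proteins Uqcrc1 and Uqcrc2 -0.13 ± 0.08 and -0.08 ± 0.08. In complex V, the catalytic Atp5b was at 4331, 4093 and 3844 CPM in KO ifetroban, 3779 and 4198 CPM in KO vehicle, 4230.5 and 4415 CPM in WT ifetroban and 4758 and 4447 CPM in WT vehicle libraries. The lowest Atp5b level was in KO vehicle 1 and the highest in the library labelled WT vehicle 1 (log2 change -0.14 ± 0.08 (SE), adjusted p = 0.445 by edgeR). The rotor stalk gene Atp5c1 had a log2 change of -0.06 ± 0.13 (SE).

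At the ends of each complex in transcript length, the log2 changes over both treatments were also small against their errors. In complex I they were 0.02 ± 0.16 for Ndufa1, with the shortest transcript, and 0.02 ± 0.18 (SE) for Ndufb2, with the longest, both accessory subunits. Uqcr10, a small subunit of complex III, had -0.01 ± 0.14, Cox8b of complex IV -0.00 ± 0.15, and Atp5g1 of complex V -0.03 ± 0.14 (SE). The pseudogenes Atp5k-ps2 and Atp5l-ps1 were at 0.03 ± 0.17 and -0.23 ± 0.35 (SE). Reads of subunit genes and of their near-identical pseudogene copies may be split between them, so these values are uncertain.

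Complex IV is the part of the chain with tissue-specific subunit forms, and the balance of these forms was compared as shares of counts per coding base. Cox4i2 made up 0.693, 0.619 and 0.633 % in KO ifetroban, 0.735 and 0.682 % in KO vehicle, 0.616 and 0.514 % in WT ifetroban and 0.435 and 0.585 % in WT vehicle libraries of the pair with Cox4i1. The 5 KO libraries (0.619% to 0.735%) lay above the 4 WT libraries (0.435% to 0.616%), with a narrow gap. The mean share was 0.269 percentage points higher in KO within the negative-slope set, where the library labelled WT vehicle 1 is the only WT library, and 0.0543 within the positive-slope set. The level of Cox4i2 was low, at 10.5, 7.02 and 7.02 CPM in KO ifetroban, 9.3 and 9.68 CPM in KO vehicle, 7.27 and 6.08 CPM in WT ifetroban and 7.59 and 7.33 CPM in WT vehicle libraries, and its log2 change was 0.32 ± 0.14 (SE), adjusted p = 0.307 by edgeR. Cox6a1, the form found in most tissues, made up 5.97, 5.32 and 5.9 % in KO ifetroban, 6.23 and 5.68 % in KO vehicle, 4.48 and 4.77 % in WT ifetroban and 5.45 and 5.06 % in WT vehicle libraries of the pair with the muscle form Cox6a2. The mean share was 5.82 ± 0.343% in KO and 4.94 ± 0.413% in WT libraries (SD, n = 5 and 4), and 4 of the 5 KO libraries were above all WT libraries. It was 0.513 percentage points higher in KO within the negative-slope set and 0.838 within the positive-slope set.

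Cox8a, the common form of subunit 8, made up 21.8% to 24.9% of its pair with the muscle form Cox8b in KO and 20.8% to 22.3% in WT libraries, and 4 of the 5 KO libraries were above all WT libraries. For the subunit 7a pair the share of Cox7a2 was 36.7 ± 1.6% in KO and 36.2 ± 1.55% in WT libraries (SD, n = 5 and 4), and the genotypes overlapped. Atp5g1, which codes for the same mature c subunit as Atp5g2 and Atp5g3, held 25.2 ± 0.782% and 25 ± 0.305% of the trio in KO and WT (SD, n = 5 and 4), also with overlap. The 5 shares were put together after the levels had been seen, and no test was made on them. Ndufa4l2, a gene induced by low oxygen in other cell types, was at 21, 14.9 and 16 CPM in KO ifetroban, 21 and 21.3 CPM in KO vehicle, 16.7 and 13.6 CPM in WT ifetroban and 19.8 and 14.1 CPM in WT vehicle libraries. The negative-slope libraries were the highest in both genotypes (log2 change 0.25 ± 0.14 (SE), adjusted p = 0.403 by edgeR).

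**Figure D4:**
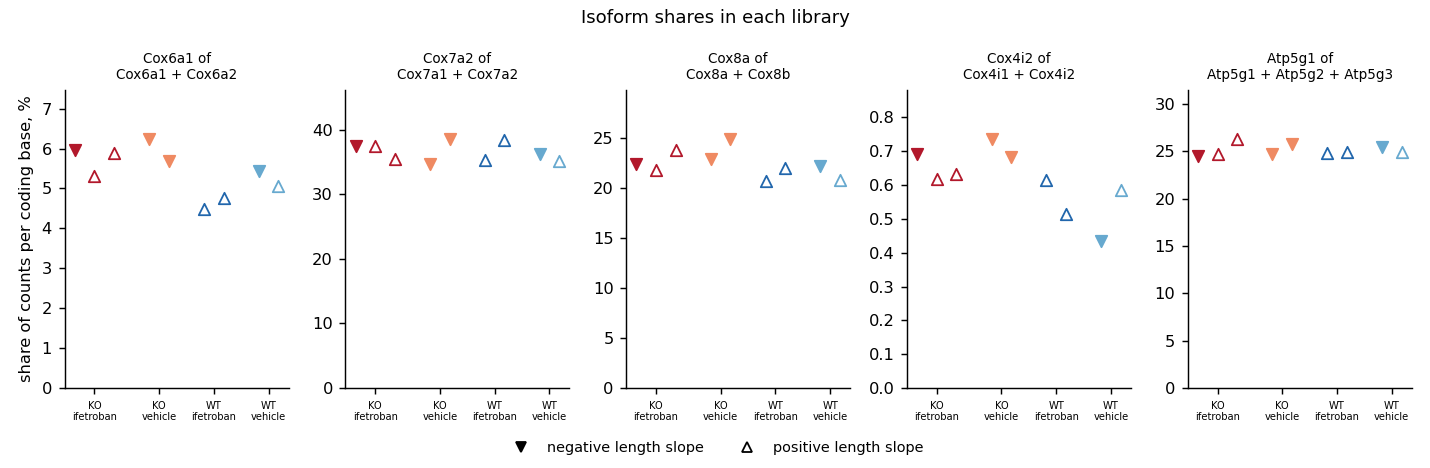
Share of counts per coding base (%, y axis, from 0) taken by Cox6a1, Cox7a2, Cox8a, Cox4i2 and Atp5g1 among the genes for the same subunit, in each library by group (x axis); filled triangles are the negative-slope and open ones the positive-slope set. The KO libraries lie above the WT libraries for Cox4i2, 4 of 5 do for Cox6a1 and Cox8a, and the genotypes overlap for Cox7a2 and Atp5g1.

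The length of the coding sequence ordered the members between the slope sets. The difference in mean log2 CPM, negative-slope minus positive-slope libraries, had a Spearman's rho of -0.704 with coding length over the 83 members that have one, and -0.52 with transcript length over 85. For the 13351 other protein-coding genes, on whose transcript length the sets were defined, it was -0.673 with transcript length. These are values across genes that share the same 9 libraries. The median difference was 0.47 for the 23 members with a coding length of up to 300 bases, 0.42 for 38 members of up to 600 bases, 0.25 for 13 of up to 1200 bases and 0.03 for the 9 longer ones. Ndufc1, with 228 coding bases, was highest at 0.60. Sdha, with 1992, was lowest at -0.23, and Ndufs1, with 2181, was at -0.13. Ndufv3 stood apart from the other long members at 0.43, with 1404 coding bases in the transcript used. Only Sdha, Ndufs1 and Atp5a1 were lower in the negative-slope set. Over the same classes the median log2 change between KO and WT over both treatments was 0.01, -0.02, -0.09 and -0.14, lower in longer classes. Under ifetroban the medians were 0.13, 0.07, -0.04 and -0.08. Under vehicle they were -0.14, -0.12, -0.13 and -0.21, without that order among the shorter classes. KO libraries made up 3 of the 4 negative-slope and 2 of the 5 positive-slope libraries, and the part of length in these values was not tested beyond the corrected fits.

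**Figure D5:**
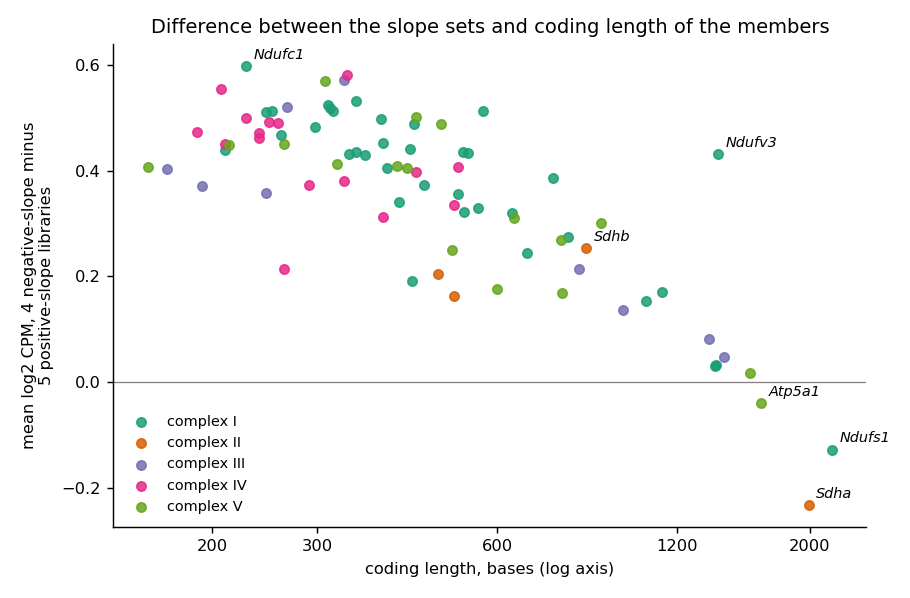
Difference in mean log2 CPM between the 4 negative-slope and the 5 positive-slope libraries (y axis) against coding length in bases (log x axis) for 83 members, coloured by complex. Short members are higher in the negative-slope set, and Atp5a1, Ndufs1 and Sdha lie below 0.

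Ifetroban gave no called member in either genotype. In KO hearts edgeR called 0 of 85 members (0 with an unadjusted p under 0.05), as it did for all genes (0%), and DESeq2 called 0. The median log2 change, ifetroban over vehicle, was -0.15, beside 0.01 for all genes. In KO hearts, Sdha had the smallest p among those with a positive change (0.17 ± 0.12 (SE), adjusted p = 0.862 by edgeR) and Cox7a2l among those with a negative one (-0.34 ± 0.18 (SE)). Cox7a2l was at 191, 143 and 156 CPM in KO ifetroban, 194 and 221 CPM in KO vehicle, 164 and 178 CPM in WT ifetroban and 238 and 168 CPM in WT vehicle libraries. The values of KO ifetroban 1 and KO vehicle libraries were close, and the 2 KO ifetroban libraries of the positive-slope set were lower. Without KO ifetroban 1 the median was -0.34, with that library counted as vehicle it was -0.40, and with the slope set as a term it was 0.15. With both doubted libraries left out, 44 members were called lower with ifetroban, against 11.6% of all genes. There the KO vehicle libraries are all of the negative and the KO ifetroban libraries all of the positive slope set, so treatment and set cannot be told apart.

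In WT hearts the median was -0.34, beside 0.01 for all genes, and 83 of 85 members were negative, beside 7480 of all 15549 genes. For this comparison edgeR called 0 members (0 with an unadjusted p under 0.05), as did DESeq2, with 0% of all genes called by edgeR. By complex the medians were -0.34 for complex I, -0.13 for complex II, -0.34 for complex III, -0.42 for complex IV and -0.34 for complex V. Cox7a1 was at 343, 242 and 227 CPM in KO ifetroban, 299 and 306 CPM in KO vehicle, 259 and 241 CPM in WT ifetroban and 441 and 272 CPM in WT vehicle libraries. In the WT groups its level in the library labelled WT vehicle 1 was far above the other 3, and the log2 change of -0.51 ± 0.25 (SE) had an adjusted p of 0.881 by edgeR. Without the library labelled WT vehicle 1 the WT median was -0.06. For the interaction edgeR and DESeq2 called 0 members (0 with an unadjusted p under 0.05 by edgeR), with 0% of all genes called by edgeR. The median was 0.17, and -0.08 without the library labelled WT vehicle 1.

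Of the genes that build or regulate the chain, 0 passed the threshold between KO and WT. Log2 changes were negative for 28 of 43, 12 of 15 and 17 of 21 genes in 3 lists, beside 8238 of all 15549 genes. Of 43 tested assembly factors of the complexes, 0 passed in any comparison, with a median log2 change over both treatments of -0.06. The smallest p was for Cox15, an enzyme of heme A synthesis for complex IV (-0.26 ± 0.09 (SE), adjusted p = 0.168 by edgeR). Of 15 tested genes for coenzyme Q and electron carriers, 0 passed (median -0.11), with Pdss2, which makes the tail of coenzyme Q, at -0.25 ± 0.08 (SE), adjusted p = 0.158 and Etfdh, which passes electrons from fatty acid oxidation to coenzyme Q, at -0.21 ± 0.08 (SE), adjusted p = 0.195 by edgeR. Of 21 tested regulators, 0 passed (median -0.11). The coactivator Ppargc1a was at -0.31 ± 0.11 (SE), adjusted p = 0.208, the nuclear receptor Esrrg at -0.41 ± 0.13 (SE), adjusted p = 0.158, Ppara, a receptor that drives fatty acid oxidation genes, at -0.76 ± 0.30 (SE), adjusted p = 0.254, and Lrpprc, which stabilises mitochondrial mRNAs, at -0.35 ± 0.11 (SE), adjusted p = 0.139 by edgeR. With the length and GC offset, which called 5.22% of all genes, 3 genes of the coenzyme Q list and 2 of the regulators passed, all lower in KO. With the slope set as a term, which called 3.04% of all genes, 1 gene of the coenzyme Q list and 0 regulators passed.

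Markers of macrophages and of fibroblasts differed between the genotypes. All 7 macrophage markers rose in KO over both treatments (edgeR, median log2 change 0.90), and their summed level was 204 to 218 CPM in KO ifetroban, 224 to 245 CPM in KO vehicle, 104 to 138 CPM in WT ifetroban and 119 to 152 CPM in WT vehicle libraries. Of 7 fibroblast markers 3 rose, and their sum was 1085 to 1413 CPM in KO ifetroban, 1447 to 1581 CPM in KO vehicle, 848 to 935 CPM in WT ifetroban and 765 to 883 CPM in WT vehicle libraries. The summed level of 9 ventricular cardiomyocyte markers was 44314 to 48275 CPM in KO ifetroban, 41575 to 44758 CPM in KO vehicle, 52622 to 54153 CPM in WT ifetroban and 50237 to 52164 CPM in WT vehicle libraries, with no overlap between genotypes, and 0 of the 9 passed the threshold. Both WT vehicle libraries lay on the WT side in the macrophage and cardiomyocyte sums. The edgeR test called 0 of 6 endothelial, 0 of 6 smooth muscle and pericyte, 0 of 3 tested lymphocyte and 0 of 2 tested skeletal muscle markers over both treatments. Of the atrial markers Sln was at 0 and Myl7 was not tested, and 0 of 4 adipocyte markers passed the low-count filter, with Ucp1 at 0. In whole tissue, fewer heart muscle cells and less RNA per cell cannot be told apart, and the part of cell makeup in the subunit values was not tested.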

How the data were processed

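The deposited values were expected counts per gene for 9 left ventricle libraries, read as such because 28.2% were not whole. Per the submitters' processing notes, the build was mm10 and the tools were STAR, Partek and bcl2fastq, with no version or role given, and the counting rule was not known. After rounding, genes were filtered with filterByExpr (count minimum 10), and libraries were scaled with TMM factors. The quasi-likelihood test of edgeR 4.0.16 (R 4.3.3, robust) was fitted on all 9 libraries and all 15549 genes, with 4 group means, and with genotype and treatment as additive terms for the effect over both treatments. Benjamini-Hochberg adjustment ran over all genes (threshold 0.05), and SE is the log2 change divided by the root of F. Depth was 21510263 to 30182955 counts. A set of 8 pseudogenes similar to mitochondrial sequence held 19.8% to 28.6% of a library and was kept. Coding and transcript lengths are those of GENCODE M21, and coordinates are the deposited ones with 1 subtracted from the end.

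The members, the gene lists and the slope sets were chosen with earlier results of these data known. Named are members past the threshold, else the 3 smallest p in each direction, the 4 Sdh genes, isoform and core subunit genes, and the transcript length extremes and farthest member of each complex. Alternatives were DESeq2 1.42.0 and its size factors, no filter, only the groups compared, a replicate block, KO ifetroban 1 as vehicle, each library left out, the slope set as a term or alone, an offset for length and GC by splines with 4 degrees of freedom, and protein-coding genes only. Chosen after seeing the data were leaving out 2 doubted libraries, the isoform shares and the counts within slope sets. The fits were tested on simulated data that held no trend with transcript length. That test therefore cannot show how well the slope set term or the offset handles such a trend. The values of 1 member are not reported here.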

Additional observations from a re-analysis of the deposited data

How the results depend on the processing

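The number of members past the threshold was 0 wherever an alternative was run, other than those named here. Only the groups compared were fitted for 4 of the 6 comparisons, and the negative-slope or the positive-slope libraries alone for 2 each. For genotype over both treatments it was 2 by the DESeq2 Wald test, 2 with the length-slope set as a term and 6 with the length and GC offset. For genotype under vehicle it was 2 with the slope set as a term. Leaving out both the library labelled WT vehicle 1 and KO ifetroban 1, chosen after seeing the data, gave 44 for ifetroban in KO. The medians were then 0.18 under vehicle, -0.0588 for ifetroban in WT and -0.28 for the interaction. For that setting the count under vehicle is left out, since WT vehicle 2 was the only WT vehicle library there. With the slope set as a term the median was 0.15 for ifetroban in KO and -0.0611 in WT, and with the negative-slope or positive-slope libraries alone it was 0.15 in KO or -0.0577 in WT. Leaving out each library in turn, medians ran from -0.36 to 0.18 for genotype under vehicle, -0.12 to 0.18 under ifetroban, -0.13 to 0.12 over both treatments, -0.34 to -0.05 for ifetroban in KO, -0.59 to -0.0587 in WT and -0.0819 to 0.41 for the interaction, and 0 members passed. In all, 83 of 580 alternative medians of single complexes had the opposite sign, and 27 of 676 alternative values of named members did. Sdha was negative in all 58 of its alternatives for genotype. These reuse the same libraries, in which every KO library already lay below every WT library for Sdha, so its sign was largely fixed in advance. The causes of the differences between settings were not tested.

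The count of all genes past the threshold for genotype over both treatments, 363, was 51 to 475 when a library was left out (51 without WT ifetroban 2 and 58 without KO vehicle 1), 896 by DESeq2 and 550 with a replicate block. Whether replicate numbers pair the samples is not known. The deviations of same-numbered samples from their group means correlated between -0.06 and 0.50 over 12 pairs, and 2 were over 0.1. In a group of 2 libraries these deviations mirror each other, so the pairs are not independent and cannot decide it. With the replicate block 0 members passed in any comparison, and the medians were -0.11, 0.14 and 0.02 for genotype under vehicle, under ifetroban and over both treatments, -0.09 and -0.32 for ifetroban in KO and WT, and 0.21 for the interaction. With 2 or 3 libraries in a group, the SD of the members' median between replicates, 0.249 on the log2 scale, limits what can be seen.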
